A study of Aedes aegypti and Anopheles culicifacies with 47 samples.

Results

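Brains of adult female *Aedes aegypti* dissected at 6pm were compared with brains dissected at 6am, across all genes with enough reads to test. The comparison holds 4 of the 16 *Aedes* libraries used here, namely replicates 1 and 3 of 6pm and replicates 1 and 3 of 6am. They were chosen by the species, tissue and clock time in their titles. All were wild-type females of 5 to 6 days from 1 cohort, kept at 27 ± 2 °C and 80% relative humidity with 12 h of light and 12 h of dark. The labels do not state at which clock hour the light came on, how many brains went into a library, or whether replicates came from separate animals. The study took the brain, and the pooled antennae, maxillary palps and mouthparts as olfactory tissue, of this day-biting species and of a night-biting *Anopheles* at 4 clock times, to relate daily rhythms of RNA to the hours of activity. Brain libraries of 12pm and 12am (2 each) and the *Aedes* olfactory libraries (3 at 6pm, 2 at 6am, and 3 at the other times) serve here to set the 6pm and 6am brain values in context.

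Daily rhythms in insects come from a feedback loop within cells, in which transcription factors switch on genes whose protein products later shut those factors off. In the brain, small groups of clock neurons run this loop and pass the time of day to other cells through neuropeptides. RNA of genes driven by the loop, or driven directly by light, feeding and activity, therefore goes through a maximum and a minimum each day. The files list genes by AAEL identifier only, and the reference table used here pairs 0 of these identifiers with a name. No clock gene or cell type marker is therefore named below, the labelled tissue was not checked against markers, and at most 2 identifiers are given per direction and test.

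Reads assigned to genes numbered 9970202 and 6182802 in the 6pm libraries (replicates 1 and 3), against 7733365 and 5072614 in the 6am libraries. Reads placed at several positions took 18.4% ± 2.43 of all reads at 6pm and 21.2% ± 0.540 at 6am (SD, n = 2 each; exact permutation test, two-sided p = 0.333, the smallest 2 against 2 libraries allow). A count was found for 12608 ± 9.90 genes at 6pm and 12159 ± 313 at 6am (SD, n = 2 each; exact permutation p = 0.333). Depth averaged 8.08 ± 2.68 megareads at 6pm and 6.403 ± 1.88 megareads at 6am (SD, n = 2 each; exact permutation p = 0.667), and its part in the number of genes was not tested. Pearson's r of log2(CPM + 1) across 9580 genes was 0.963 between the 6pm libraries and 0.970 between the 6am libraries. Of the 4 pairings of a 6pm with a 6am library, 3 were lower, at 0.945, 0.956 and 0.960, and the pair of both replicates 1 was higher, at 0.977. CPM is the count of a gene scaled to the reads in genes of its library. These correlations are across genes, which are not replicates.

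No gene of 9580 differed between 6pm and 6am at an adjusted p under 0.05 in edgeR's quasi-likelihood test with Benjamini-Hochberg adjustment (0%, smallest adjusted p = 0.350). Without adjustment, 364 genes (3.8% of those tested) had a p under 0.05. Of these, 254 (2.65%) were higher at 6pm and 110 (1.15%) were lower. With no change in any gene, a share of about 0.05 would be expected under this threshold, and the 364 do not exceed it. This varied with the setting. That share was exceeded by 659 of 9240 genes on the 4 libraries alone and 832 of 9580 with the replicate number as a block. A covariate for reads outside genes gave 735 of 9580, also above. Dropping 12am replicate 1 or 3 gave 587 of 9875 and 596 of 9936, again above. With DESeq2 size factors, other low-count filters, all 16 libraries or other treatments of damaged lines the share stayed below. Dropping either 12pm library left it below. DESeq2, fitted to the same 8 brain libraries and genes, called 20 genes at an adjusted p under 0.05 (0.209%), 16 of them higher at 6pm (0.167%) and 4 lower (0.0418%). Neither fit used the replicate number. Some of the counts of called genes rose when it entered as a block, as given below with the processing. The other 5 pairs of clock times in the brain had 83 to 220 genes at an unadjusted p under 0.05 in edgeR. The 364 became 548 when 6pm replicate 1 was dropped, 127 when 6am replicate 3 was dropped, and 587 or 596 when 12am replicate 1 or 3 was dropped. The 2 libraries per clock time may differ for technical reasons, so each p-value measures only the spread between these libraries.

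The changes were uneven in size and direction. The median log2 change over all genes tested was 0.00 after TMM scaling, which sets it close to 0. Among the 7848 genes with a mean of at least 5 CPM over the 4 libraries, 350 were at least 2-fold higher at 6pm and 40 at least 2-fold lower in the edgeR estimates. Both 6pm libraries lay above both 6am libraries for 324 of those 350, and below them for 13 of those 40. Over all 9580 genes tested, libraries of the 2 times did not overlap for 31.8%, and a choice by size of change favours such genes. High-level genes moved little, and of 1992 genes at 100 CPM or more 18 were at least 2-fold higher at 6pm and 5 lower. The excess of higher over lower genes was present whichever library was left out, but its size was not stable. It was 308 higher against 162 lower when 6pm replicate 1 was dropped and 451 against 81 when 6pm replicate 3 was. Dropping 6am replicate 1 gave 575 against 14, and dropping 6am replicate 3 gave 240 against 86.

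Single libraries also differed by such amounts within a clock time. Of the same 7848 genes, 589 (7.51%) differed at least 2-fold between the 6pm libraries and 354 (4.51%) between the 6am libraries. Pairing a 6pm with a 6am library gave 4.13% for the pair of replicates 1 and 6.18% for the pair of replicates 3, 6.37% for 6pm replicate 3 with 6am replicate 1, and 10.4% for 6pm replicate 1 with 6am replicate 3. The distance between clock times therefore overlapped the distance between replicates.

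**Figure D1:**
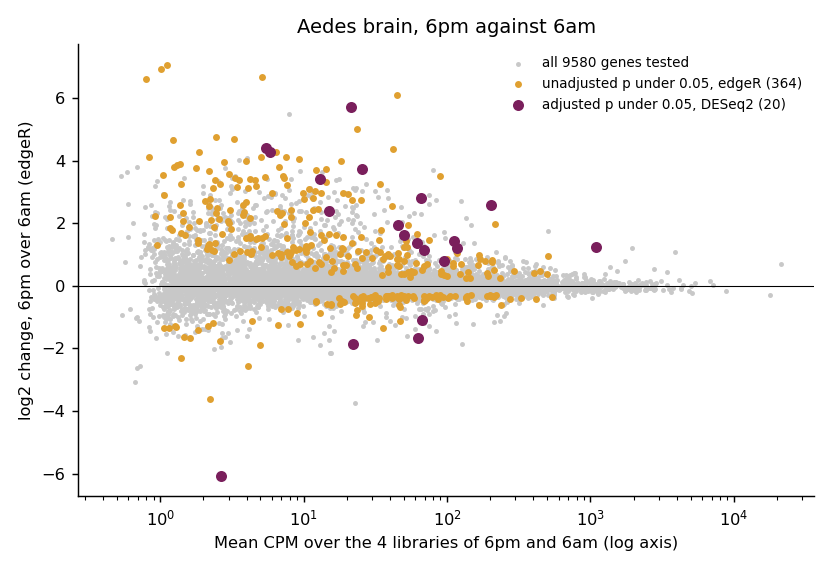
Each point is 1 of the 9580 genes tested, with its mean CPM over the 4 libraries of 6pm and 6am on a log axis and its edgeR log2 change, 6pm over 6am, on the vertical axis. Orange points had an unadjusted p under 0.05 in edgeR (254 above 0 and 110 below it) and dark points passed in DESeq2 (16 above and 4 below).

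The genes without overlap, 3051 in all, comprised 1706 higher at 6pm (17.8% of those tested) and 1345 lower (14%). With the 4 libraries in random order, a gene has no overlap in a share of 0.333 of cases. The total share here, 31.8%, did not exceed this. For the other 5 pairs of clock times this total share was 23.8 to 32.4%, so 6pm and 6am did not stand apart from the rest by this measure. The split between directions depends on scaling. With CPM by total reads in genes, 1553 genes were higher and 1637 lower.

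The genes shown in full, 4 in number, were named by rank, as the 2 with the smallest unadjusted edgeR p in each direction among genes at 5 CPM or more whose libraries did not overlap. Of these, 3 passed in DESeq2 with any 1 of the 8 brain libraries left out, and they were the only ones of its 20 genes to do so.

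AAEL006609 was at 148 and 177 CPM in the 6pm libraries (replicates 1 and 3), against 61.9 and 57.4 CPM in the 6am libraries. Its means were 163 ± 20.3 CPM at 6pm and 59.6 ± 3.17 CPM at 6am (SD, n = 2 each), a log2 change of 1.45 (SE 0.19; edgeR adjusted p = 0.400, DESeq2 adjusted p = 2.55e-06). Between them, the 12pm libraries stood at 116 and 113 CPM and the 12am libraries at 90.2 and 63.6 CPM. The level was thus lowest at 6am, intermediate at 12pm, highest at 6pm and lower again at 12am, with replicates of a clock time within a narrow range of each other at all but 12am. The DESeq2 log2 change was 1.32 to 1.54 with 1 library left out, with an adjusted p of at most 0.0243.

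AAEL011371 stood at 84.8 and 92.1 CPM in the 6pm libraries, against 31.9 and 37.2 CPM in the 6am libraries. The means were 88.4 ± 5.19 CPM at 6pm and 34.6 ± 3.76 CPM at 6am (SD, n = 2 each). The log2 change was 1.36 (SE 0.16; edgeR adjusted p = 0.350, DESeq2 adjusted p = 4.86e-06), and in DESeq2 it was 1.23 to 1.45 with 1 library left out, with an adjusted p of at most 0.0416. Unlike AAEL006609, this gene was still high at 12am, at 97.6 and 76.1 CPM, which overlapped the 6pm libraries. At 12pm it was at 46.6 and 49.3 CPM, above both 6am libraries and below both 6pm libraries.

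AAEL000630 was the gene with the smallest p of the comparison. It had 25.5 and 34.9 CPM in the 6pm libraries, against 91.9 and 97.8 CPM in the 6am libraries. The means were 30.2 ± 6.63 CPM at 6pm and 94.9 ± 4.17 CPM at 6am (SD, n = 2 each), a log2 change of -1.65 (SE 0.19; edgeR adjusted p = 0.350, DESeq2 adjusted p = 1.66e-08). The 12pm libraries were already low, at 30.3 and 30.5 CPM, and the 12am libraries lay at 39.0 and 48.4 CPM. High RNA was thus seen at 6am only among the 4 clock times, with both 6am libraries above the other 6. In DESeq2 the change was -1.89 to -1.47 with 1 library left out, with an adjusted p of at most 0.00482. In olfactory tissue it had 0 to 9 counts per library, below the filter on low counts.

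AAEL003954 was at 47.2 and 38.2 CPM in the 6pm libraries, against 99.1 and 82.9 CPM in the 6am libraries. The means were 42.7 ± 6.41 CPM at 6pm and 91.0 ± 11.4 CPM at 6am (SD, n = 2 each), a log2 change of -1.09 (SE 0.21; edgeR adjusted p = 1.00, DESeq2 adjusted p = 0.0265). It stepped down through the day, to 77.1 and 67.2 CPM at 12pm, and the 12am libraries, at 49.0 and 34.7 CPM, overlapped those of 6pm. Its DESeq2 call was the least stable of the 4, passing in 2 of the 8 fits with 1 library left out (adjusted p = 0.00460 to 0.963).

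**Figure D2:**
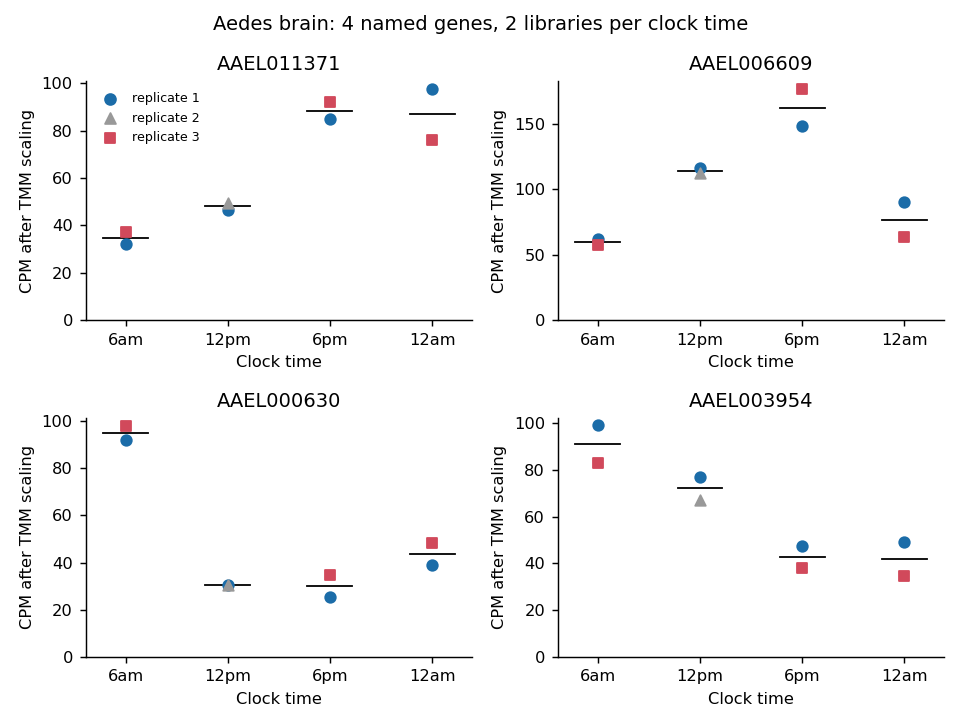
CPM after TMM scaling of the 4 genes named by rank in each of the 8 brain libraries, by clock time in the order of the day, with replicate numbers as symbols and the mean of 2 libraries as a bar. The upper 2 genes are higher at 6pm, the lower 2 are higher at 6am, and AAEL000630 is high at 6am only.

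The 16 genes that DESeq2 called higher at 6pm had edgeR log2 changes of 0.79 to 5.71 (median 2.16) and mean levels of 5.45 to 1085 CPM. The 4 called lower had log2 changes of -6.06 to -1.09. All 20 had libraries that did not overlap between the times and an unadjusted p under 0.05 in edgeR, and they kept their direction in each DESeq2 fit with 1 library left out. Replicates lay within 2-fold of each other at both times for 11 of the 16 and 3 of the 4. For the others the 6pm libraries differed by up to 31.4-fold, or 1 of them had no read. The count of 20 was moved by more than 1.5 times by 6 libraries. It was 13 or 7 when 6pm replicate 1 or 3 was dropped, 7 or 4 when 6am replicate 1 or 3 was dropped, and 48 or 50 when 12am replicate 1 or 3 was dropped.

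Midday and midnight levels of these genes mostly lay between those of 6am and 6pm. Of the 16 higher genes, 15 had their highest mean of the 4 clock times at 6pm and 1 at 12pm, and 12 had their lowest mean at 6am. The 12am mean lay between the 6am and 6pm means for 15 of them and the 12pm mean for 12. Of the 4 lower genes, 4 had their highest mean at 6am and 3 their lowest at 6pm. The wider group at an unadjusted p under 0.05 in edgeR had the same form. Of the 254 higher genes, 240 were highest at 6pm and 219 lowest at 6am, and of the 110 lower genes, 84 were highest at 6am and 95 lowest at 6pm. The choice of genes with a large difference between 6pm and 6am favours such extremes, so these are descriptions.

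Olfactory tissue of the same species gave a separate set of libraries for the same 2 clock times. The labels do not say whether the olfactory tissue and the brains came from the same mosquitoes. All 16 genes that DESeq2 called higher at 6pm in brain were also higher at 6pm in olfactory tissue (median log2 change 1.32), and the 2 lower genes measured there were also lower (median -0.81). Over all 8822 genes in both fits, 4413 were higher at 6pm in olfactory tissue. Of the 16, only 1 passed in olfactory tissue by itself, where edgeR called 9 of 9950 genes (0.0905%).

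The wider group showed the same in one direction. Of the 254 genes higher in brain at an unadjusted p under 0.05, 237 were measured in olfactory tissue and 193 of those (81.4%) were higher at 6pm there, with a median log2 change of 0.55. Of the 110 lower genes, 100 were measured and 61 (61%) were lower in olfactory tissue, with a median of -0.13. Across the 337 genes measured in both, Pearson's r between the changes was 0.558 and Spearman's rho 0.558, against 0.340 and 0.200 across all 8822. The choice by p in brain favours large changes and can by itself raise these values, so they are descriptions. These correlations are across genes, within which both tissues share the species, cohort and clock times.

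**Figure D3:**
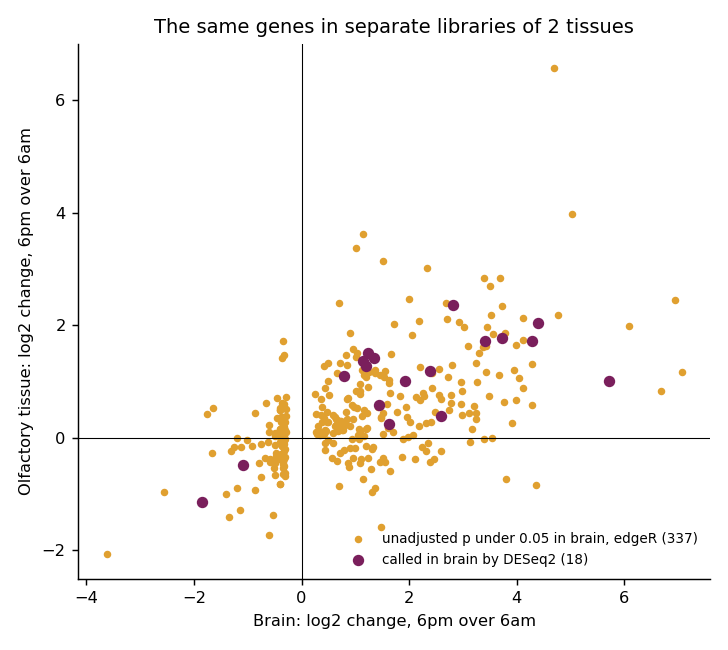
Each point is a gene with its log2 change in brain (horizontal axis) and in olfactory tissue (vertical axis), 6pm over 6am, from separate edgeR fits. Orange points are the 337 genes with an unadjusted p under 0.05 in brain, and dark points are the 18 of the DESeq2 calls measured in both, 16 of which lie above 0 on both axes and 2 below 0 on both.

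For 3 of the 4 named genes the change could be set beside that in olfactory tissue, and the difference between the tissues passed for none of them (edgeR adjusted p = 0.940 to 1.00). In olfactory tissue AAEL011371 averaged 161 ± 27.6 CPM at 6pm (SD, n = 3) and 60.9 ± 64.9 CPM at 6am (SD, n = 2), a log2 change of 1.42 (edgeR adjusted p = 0.792) close to the brain's 1.36, and its 6am libraries there differed widely, at 14.96 and 106.8 CPM. AAEL006609 averaged 214 ± 69.4 CPM at 6pm (SD, n = 3) and 144 ± 55.5 CPM at 6am (SD, n = 2), a log2 change of 0.58 (edgeR adjusted p = 0.813). AAEL003954 averaged 48.4 ± 6.48 CPM at 6pm (SD, n = 3) and 68.4 ± 12.7 CPM at 6am (SD, n = 2), a log2 change of -0.48 (edgeR adjusted p = 0.806). None of these 3 passed in olfactory tissue, where the libraries of the 2 times held 853349 to 6558092 reads in genes.

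AAEL008141 is shown for its course over the 4 clock times in brain, not for a difference between 6pm and 6am. It stood at 131 and 95.4 CPM in the 6pm libraries, against 154 and 167 CPM in the 6am libraries, a log2 change of -0.50 (SE 0.18; edgeR unadjusted p = 0.0316, adjusted p = 1.00). The 12pm libraries, at 11.8 and 13.03 CPM, and the 12am libraries, at 365 and 297 CPM, lay far outside this range. The difference between 6pm and 6am was thus small beside that between 12pm and 12am.

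The change at 6pm against 6am was next compared between tissues. In 9 libraries of brain and olfactory tissue, edgeR called 0 of 10298 genes for a difference in the change (0%, smallest adjusted p = 0.399), with 493 at an unadjusted p under 0.05 (4.79%). Of these, 353 had a brain change above the olfactory change and 140 one below it. The share of 4.79% does not exceed that expected under this threshold with no difference in any gene. This was not stable. With the replicate number as a block, 689 of 10298 genes exceeded it, as did 611 of 10302 without olfactory 6pm replicate 2. Without olfactory 6pm replicate 1 or 3 (393 of 10328 and 438 of 9955) the share stayed below. It also rose above when either olfactory 6am library was left out, which leaves 1 library there. DESeq2 called 29 genes (0.282%), 26 above and 3 below.

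By smallest p, AAEL012425 led the genes whose brain change was above the olfactory change. It was at 17.4 and 15.5 CPM in brain at 6pm, against 16.1 and 11.1 CPM in brain at 6am. In olfactory tissue it averaged 7.04 ± 1.90 CPM at 6pm (SD, n = 3) and 56.9 ± 12.8 CPM at 6am (SD, n = 2). The brain change minus the olfactory change was 3.20 on the log2 scale (SE 0.46; edgeR adjusted p = 0.399, DESeq2 adjusted p = 0.000129). The brain libraries of the 2 times lay close together and the olfactory libraries far apart.

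AAEL008106 was next in that direction, with 19.7 and 41.6 CPM in brain at 6pm against 3.17 and 2.62 CPM in brain at 6am. In olfactory tissue it averaged 87.7 ± 25.9 CPM at 6pm (SD, n = 3) and 92.6 ± 26.7 CPM at 6am (SD, n = 2), so here the brain libraries moved apart. The difference was 3.43 (SE 0.56; edgeR adjusted p = 0.550, DESeq2 adjusted p = 0.000259). In the 12pm and 12am libraries this gene was 8.76-fold higher in olfactory tissue than in brain (with a pseudocount of 0.5 CPM), and its brain level there ran from 0.796 and 1.91 CPM to 12.7 and 20.2 CPM, low in 12pm replicate 2 and 12am replicate 3 and high in both replicates 1.

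AAEL003269 was among the genes whose brain change was below the olfactory one. It had 8.03 and 13.4 CPM in brain at 6pm against 5.28 and 5.23 CPM in brain at 6am. In olfactory tissue it averaged 262 ± 76.7 CPM at 6pm (SD, n = 3) and 25.2 ± 10.9 CPM at 6am (SD, n = 2). The direction was the same in both tissues, and the brain change minus the olfactory change was -2.35 (SE 0.55; edgeR adjusted p = 0.618, DESeq2 adjusted p = 0.0221).

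Genes with far more RNA in olfactory tissue than in brain were at the median higher in the 6pm than in the 6am brain libraries. This list was formed after the changes had been seen and is described without a test. The ratio between tissues was taken from the 12pm and 12am libraries, none of which enters the difference between 6pm and 6am. There were 773 genes at least 8-fold higher in olfactory tissue, among 7983 at 10 CPM or more in either tissue. Their median log2 change in brain, with CPM by total reads and a pseudocount of 0.5 CPM, was 0.30, against -0.04 over all 7983. It was 0.12 when 6am replicate 3 was dropped and 0.56 when 6am replicate 1 was. Many of these genes were near the limit of detection in brain, and 477 of the 773 passed the filter of the brain fit. No read was found for 130 of them in 6am replicate 3, the brain library with the fewest reads. This number was 72 in 6am replicate 1 and 76 in each 6pm library, and the part of depth was not tested. Brain libraries of 6pm lay above those of 6am for 264 of the 773 (34.2%) and below for 44 (5.69%), against 14.9% above and 17.8% below over all 7983. The 790 genes 2 to 8-fold higher in olfactory tissue had a median of 0.15, and the 2819 genes 2 to 8-fold higher in brain had one of -0.09.

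The 773 genes together made up a small share of brain RNA that varied between replicates. They took 0.830% and 0.602% of the gene reads in the 6pm libraries (replicates 1 and 3), against 0.718% and 0.337% in the 6am libraries. The groups overlapped, since 6pm replicate 3 was below 6am replicate 1. The 12pm libraries were at 0.635% and 0.403% and the 12am libraries at 0.657% and 0.304%, with replicate 1 the higher at each of the 4 clock times. In olfactory libraries the same genes took 19.1 to 23.1% of the reads. In bulk tissue, more or fewer cells of a type and more or less RNA per cell cannot be told apart.

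**Figure D4:**
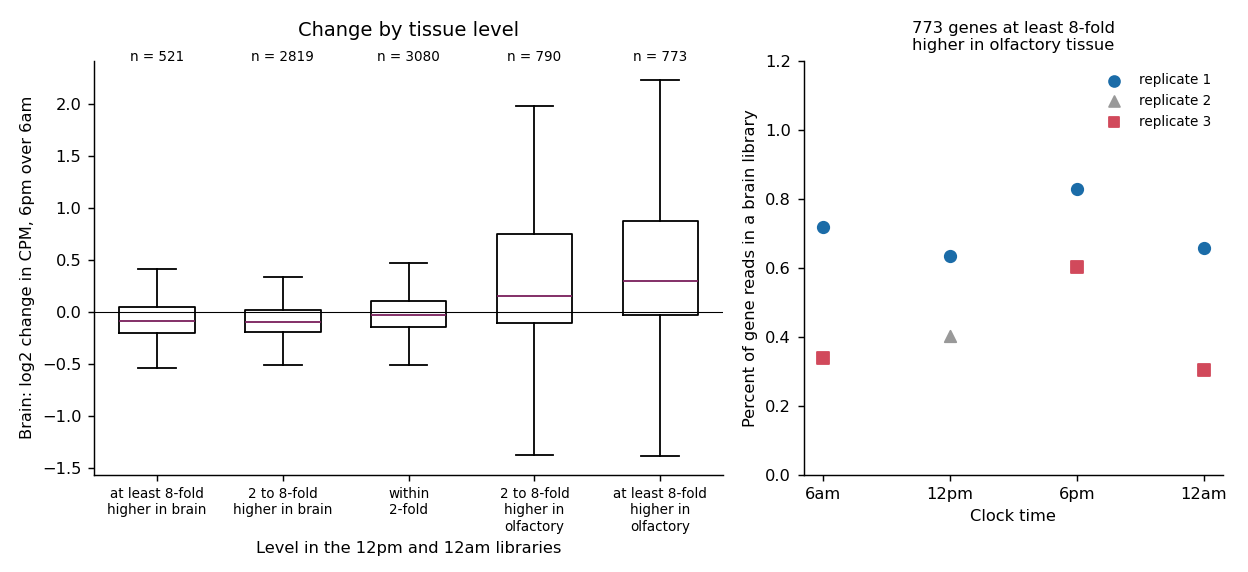
Left, the log2 change in brain CPM, 6pm over 6am, for genes grouped by their ratio between tissues in the 12pm and 12am libraries, with the median, the quartiles and whiskers to the farthest gene within 1.5 box lengths (genes beyond are not drawn). Right, the share of gene reads that the 773 genes at least 8-fold higher in olfactory tissue took in each brain library, which ran from 0.304 to 0.830%.

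Such genes made up a larger share of the large changes than of the DESeq2 calls. Of the 350 genes at least 2-fold higher at 6pm, 212 (60.6%) were at least 2-fold higher in olfactory tissue, against 10.5% of all 7848 genes at that level, and 85 (24.3%) were at least 8-fold higher there, against 2.55%. Of the 40 genes at least 2-fold lower at 6pm, 8 (20%) were at least 2-fold higher in olfactory tissue and 28 (70%) at least 2-fold higher in brain, against 45.0% of all. Of the 16 genes that DESeq2 called higher, 4 (25%) were at least 2-fold and 0 at least 8-fold higher in olfactory tissue. Of the 26 genes that DESeq2 called for a brain change above the olfactory one, 23 were at least 2-fold and 18 at least 8-fold higher in olfactory tissue. The share over all 10298 genes of that fit is not given here, and the shares over the 7848 do not apply to it. These 2 counts therefore cannot be read as an excess. With all genes at least 2-fold higher in olfactory tissue left aside, 108 of the 125 remaining genes higher in brain at an unadjusted p under 0.05 (86.4%) were also higher at 6pm in olfactory tissue, against 51.5% of all 7273 such genes. Of the 85 remaining lower genes, 47 (55.3%) were also lower there, against 48.5% of all. The part of olfactory-high genes in the other results was not tested.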

How the data were processed

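The authors deposited 1 table of raw counts per library, with libraries made from total RNA by the NEBNext Ultra II method, per the labels' protocols. The submitters' processing notes name bcl2fastq, FastQC, STAR and HTSeq. The sources used here give no versions, genome build, annotation or strand setting, so counts of overlapping, antisense and near-identical genes are uncertain. Lines that name no gene took 34.4 to 42.0% of reads in the 6pm and 6am brain libraries and were left out. Overwritten stretches of text damaged some lines, and a gene missing in any *Aedes* library was left out (403 of 19804, 2.03%). Of 24 *Aedes* samples, 16 were used here.

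Counts of all 8 brain libraries (5072614 to 10202123 reads in genes) were fitted with edgeR's robust quasi-likelihood F-test after TMM scaling and filterByExpr, with a prior count of 0.125, no covariate and Benjamini-Hochberg adjustment over all genes tested. The common biological coefficient of variation was 0.288. DESeq2 was the alternative test. The difference between tissues was fitted to the 9 *Aedes* libraries of 6pm and 6am. Both fits were also run on simulated counts, which varied less between libraries than the data. That run therefore does not show how well the fits detect changes here. Values are CPM after TMM scaling within a tissue unless stated otherwise. Each SE was derived from the log2 change and its F value (their ratio after taking the root of F) and is approximate. Single values per library were compared by exact permutation tests. Replicates differed by more than sampling noise, with a chi-square of 40.1 per degree of freedom between the 6pm libraries and 19.8 between the 6am libraries.

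The comparison, lists and tests were chosen with earlier results of these data known. Gene lists by function could not be formed, so genes were named by the smallest unadjusted p, at most 2 per direction, among those at 5 CPM or more on average and with no overlap. Software was edgeR 4.0.16 and DESeq2 1.42.0 under R 4.3.3, and pandas 2.3.3 and scipy 1.17.1 under Python 3.11.15.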

Additional observations from a re-analysis of the deposited data

Results flagged for a closer look

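AAEL004533 had every brain library of 6pm below every brain library of 6am while every olfactory library of 6pm was above every olfactory library of 6am. In brain it was at 157 and 192 CPM at 6pm, against 204 and 265 CPM at 6am. In olfactory tissue it averaged 17.0 ± 1.09 CPM at 6pm (SD, n = 3) and 7.88 ± 0.937 CPM at 6am (SD, n = 2). The change differed between the tissues by -1.52 on the log2 scale, brain minus olfactory (SE 0.35), which did not pass (edgeR adjusted p = 0.618, DESeq2 adjusted p = 0.0621). This gene was the one with the smallest p among those whose brain change was below the olfactory change, so it was picked for this difference. In the 12pm and 12am libraries its level was 15.4-fold higher in brain (with a pseudocount of 0.5 CPM).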

How the results depend on the processing

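The count of 0 genes in edgeR held under DESeq2 size factors, both other filters on low counts, all 16 *Aedes* libraries and the 4 libraries alone. It also held with the share of reads outside genes as a covariate, both other treatments of damaged lines and each brain library left out. An unadjusted p under 0.05 was found for 659 of 9240 genes on the 4 libraries alone and 735 of 9580 with that covariate. The count of called genes was 20 in DESeq2. With the replicate number as a block it was 0 over 8 libraries (832 of 9580 at an unadjusted p under 0.05). Over the 4 libraries of 6pm and 6am it was 496 of 9240 (460 higher, 36 lower), 19 of them shared with DESeq2's 20. Of the 773 genes at least 8-fold higher in olfactory tissue, 416 were in that fit and 85 of these were called. The labels tie the replicate number to no animal, batch or day. Across 7848 genes, deviations from the clock time's mean correlated at r = 0.434 between same-numbered libraries of 6pm and 6am, 0.159 of 12am and 6pm, and 0.207 of 12am and 6am. Of the 9 same-numbered pairs among all 8 brain libraries, 8 were above 0.1, and replicates 1 of 12pm and 6pm were at -0.185. With 2 libraries per clock time the deviations mirror each other. Pairs of replicates 3 therefore repeat the values of replicates 1, and the 8 are not separate values. For the difference between tissues, the count of 0 was 29 in DESeq2, 5 with no filter on low counts, 0 to 5 with 1 library left out (5 without brain 6am replicate 1) and 0 with the replicate block (689 at an unadjusted p under 0.05). DESeq2's count of 20 was 186 on the 4 libraries and 163 with the replicate block (18 shared each), and 4 to 50 with 1 library left out. Genes without overlap numbered 4885 to 7383 with 1 of the 4 libraries left out, where 1 library remains on a side. The difference in depth of 1.67 megareads reversed to -0.220 without 6pm replicate 1 (up to 3.57 without 6pm replicate 3). The difference in reads outside annotated genes of -0.839 percentage points reversed to 0.366 without 6pm replicate 1 and 0.637 without 6am replicate 3 (down to -2.32 without 6am replicate 1). The median of the 773 genes was 0.21 to 0.31 under other fold limits, TMM scaling and a pseudocount of 1 CPM, and 0.12 to 0.56 with 1 library left out. The 4 genes named by rank kept their direction in all 19 alternatives and passed in 2 each, DESeq2 and the replicate block on 4 libraries. The cause of these shifts was not tested. The alternatives for the DESeq2 count, depth, reads outside genes and the 773 genes, and those leaving libraries out of the overlap count, were chosen after seeing the data. With 2 libraries a side, precision is limited by the number of replicates, and the part of depth was not tested.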

Other observations

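Some genes had reads in the brain at only 1 of the 2 times. Counts were present in both 6pm libraries and 0 in both 6am libraries for 219 genes, and present in both 6am libraries and 0 in both 6pm libraries for 91. Nearly all were at the limit of detection, since 3 of the 219 and 0 of the 91 had 10 or more counts in both libraries. The largest sum over both libraries was 63 counts among genes seen at 6pm and 7 among genes seen at 6am. Mean depth was higher at 6pm, and its part in these counts was not tested.

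Of the 9 genes that edgeR called between 6pm and 6am in olfactory tissue, 8 were measured in brain and 7 of those had the same direction there, 2 with an unadjusted p under 0.05. Over all 8822 genes in both fits, 4931 (55.9%) had the same direction in both tissues, and 3.8% of genes tested in brain had an unadjusted p under 0.05. The closest pair among the 8 brain libraries was 6am replicate 3 with 12am replicate 3 (Pearson's r = 0.990 across 9580 genes), a pair of different clock times.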
